A study of Bos taurus with 18 samples.

Results

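Leukocyte gene expression of F1 hybrid cows was compared with that of Droughtmaster cows. The members are the 12 libraries whose breed label is Red Angus x Droughtmaster (the F1, 6 animals) or Droughtmaster (6 animals), of 18 libraries in the series. The other 6 are Red Angus, and their levels are given only for the genes described singly. Every animal was female, every sample was labelled as leukocytes from blood, and every animal carried the heat stress label, so the comparison is between breeds within that condition. The question of the series is how hybrids inherit the expression levels of their parental breeds. No group is described by age, treatment, sire or dam. Nothing in the labels says whether F1 animals were related to each other or to the Droughtmaster animals sampled. Each animal gave 1 library, so the spread below is between animals.

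Red Angus is a Bos taurus beef breed, and Droughtmaster is a composite bred in the tropics from Bos indicus and Bos taurus stock and known for its tolerance of heat. An F1 animal carries 1 haploid genome from each parental breed. Blood leukocytes are a mixture of neutrophils, lymphocytes, monocytes and rarer cells. In such a bulk sample, more cells of a type and more RNA per cell cannot be told apart. Leukocytes under heat are known to draw on chaperones, antioxidant enzymes and inflammatory mediators. Whether those groups moved here was not analysed, because the files do not pair Ensembl identifiers with gene symbols. Of the 27607 identifiers, 0 had a match in the RefSeq table of assembly ARS-UCD2.0. For the same reason the leukocyte label was not checked against marker genes, no function is given for any gene, and only 2 identifiers are named in each direction.

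Libraries held 11639027 to 21889675 counts. The mean total was 18008193 ± 3097089 in the F1 and 16213487 ± 2536858 in Droughtmaster (SD, n = 6 each; exact two-sided permutation p = 0.303, adjusted p = 1 over 4 library measures). Ensembl genes with at least 1 count numbered 14163 to 16885 in the F1 and 15499 to 17539 in Droughtmaster. In Droughtmaster replicate 3 a single gene held 44.6% of the counts, against at most 0.409% for that gene in the other 11 libraries. The numbers of genes called are therefore also given without that animal.

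With all 12 libraries a minority of genes differed, and most of them were lower in the F1. Of 12898 Ensembl genes tested, 146 differed by edgeR's quasi-likelihood test with a Benjamini-Hochberg adjusted p under 0.05, or 1.13%. The F1 was higher in 36 of them (0.279% of genes tested) and lower in 110 (0.853%). The smallest adjusted p was 0.0152. Before adjustment, 2038 genes (15.8%) had p under 0.05, with the F1 higher in 744 and lower in 1294. DESeq2's Wald test, with its own scaling and gene filter and the same threshold, called more genes, 757 of 15386 tested (4.92%). Of these, 178 were higher (1.16%) and 579 lower (3.76%) in the F1. Among the 12898 genes that edgeR tested, DESeq2 called 640.

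Among the called genes, those lower in the F1 had larger fold changes than those higher in it. The median log2 fold change, F1 minus Droughtmaster, was -2.17 among the 110 lower genes and 1.61 among the 36 higher ones, against 0 over all genes tested. All 110 lower genes were at least 2-fold lower, 62 of them at least 4-fold and 10 at least 16-fold. Of the 36 higher genes, 35 were at least 2-fold higher, 12 at least 4-fold and 0 at least 16-fold. The same tilt was present before any call was made. Among all genes tested, 217 were at least 4-fold lower and 38 at least 4-fold higher in the F1 by the fitted fold change. Without Droughtmaster replicate 3 these numbers were 164 and 33, a comparison chosen after seeing the data. Passing the test favours large estimates, so the sizes among the called genes may be too large. The median standard error of the log2 fold change was 0.425 among the lower genes and 0.294 among the higher ones. A larger error needs a larger fold change to pass, so the medians of both directions are not on equal terms.

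**Figure D1:**
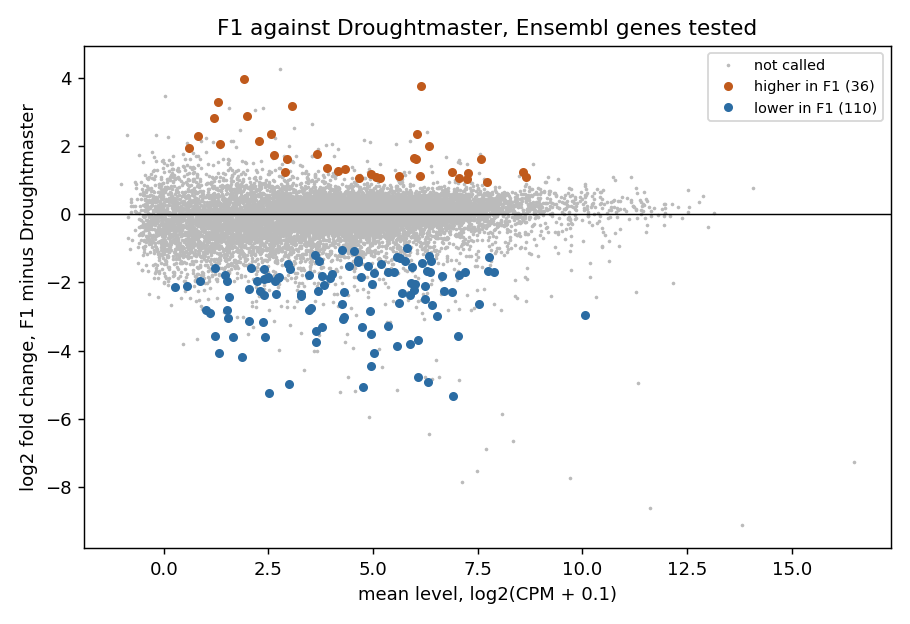
Log2 fold change (F1 minus Droughtmaster) against the mean level in both groups, as log2(CPM + 0.1), for 12898 Ensembl genes; each point is 1 gene. The 36 orange points are higher and the 110 blue points lower in the F1 by adjusted p, and the grey points at the bottom at 16-fold lower or beyond are in 22 of 25 cases genes highest in Droughtmaster replicate 3.

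Most of the genes with the lowest fold changes did not pass. Of 35 genes with a fitted level at least 16-fold lower in the F1, 25 did not pass the test. In 22 of those 25, Droughtmaster replicate 3 was the highest of the 12 libraries and stood at least 16 times above the next Droughtmaster library. Among the 10 that passed, that animal was the highest library in 1.

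Genes that differed were found at every level of abundance but the lowest. Levels are given as CPM, each gene's counts per 1000000 counts of the TMM-scaled library. Between 1 and 10 CPM, 13 genes were higher and 37 lower, which is 1.18% of the 4231 tested. Between 10 and 100 CPM there were 15 higher and 62 lower genes (1.19% of 6467), and above 100 CPM 8 higher and 11 lower (1.14% of 1660). Of the 540 genes tested below 1 CPM, 0 passed edgeR's test, and the median standard error of the log2 fold change there was 0.579, against 0.287 between 10 and 100 CPM. The 36 higher genes had a median mean level of 28 CPM and the 110 lower genes 20.5 CPM, against 17.8 CPM over all genes tested.

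Among the genes higher in the F1, the animals of both groups were mostly separate. In 30 of the 36, all 6 F1 libraries lay above all 6 Droughtmaster libraries, and in the other 6 genes 5 Droughtmaster libraries lay below every F1 library. Over all genes tested, the F1 lay wholly above Droughtmaster in 117 (0.907%). Among the genes lower in the F1, separation was less complete. In 59 of the 110 all 6 Droughtmaster libraries lay above every F1 library, in 39 genes 5 of them did, and in 12 genes 4 did. Over all genes tested, the F1 lay wholly below in 141 (1.09%). The genes of both directions were called by the group difference in these same libraries, so little overlap among them follows from the choice.

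Droughtmaster animals differed from each other in the genes that were lower in the F1. The median standard deviation between animals, in log2 CPM, was 0.886 in Droughtmaster and 0.561 in the F1 over these 110 genes, and the Droughtmaster value was the larger in 88 of them. Over all genes tested the medians were 0.567 and 0.535, and Droughtmaster had the larger value in 55.7%. In the 36 genes higher in the F1 the medians were 0.511 in Droughtmaster and 0.461 in the F1. These genes were chosen by the difference between the groups, and their spread is given as a description.

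Among Droughtmaster animals, the spread in the lower genes often followed the same animals. Relative to the F1 mean, the median of the 110 genes was 2.63 higher on the log2 scale in Droughtmaster replicate 6, 2.58 in replicate 2 and 2.24 in replicate 3. It was 1.78 in replicate 5, 1.34 in replicate 1 and 1.09 in replicate 4. Replicate 2 had the highest level of the 6 in 49 of the genes and replicate 6 in 36, while replicate 4 had the lowest in 48 and replicate 1 in 31. Replicate 3, the animal with a single dominant gene, was highest in 14. In 9 genes a single Droughtmaster library held over 50% of the group's summed CPM, and that library was replicate 2 in 7 of them. The 110 genes were chosen for being higher in Droughtmaster. These medians and tallies were not taken over all genes tested, so whether they are particular to the 110 was not tested. The genes higher in the F1 varied less between Droughtmaster animals, with medians from -1.83 in replicate 5 to -1.18 in replicate 1 relative to the F1 mean. Among the 6 F1 animals, replicate 1 was lowest in 36 of the 110 lower genes and replicate 2 in 26, while replicate 5 was highest in 31. F1 replicate 2 was the highest F1 animal in 17 of the 36 higher genes. These F1 tallies were not taken over all genes tested either.

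**Figure D2:**
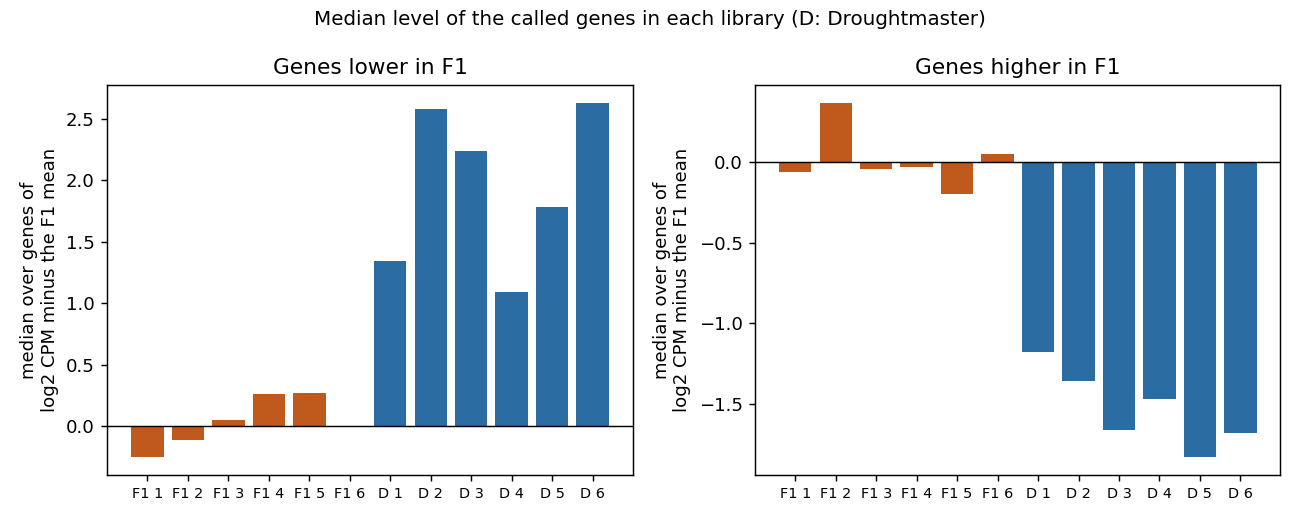
Median over the called genes of log2 CPM minus the F1 mean, in each of the 12 libraries (bars; F1 orange, Droughtmaster blue), for the 110 genes lower in the F1 (left) and the 36 genes higher (right). In the left panel Droughtmaster replicates 1 and 4 stand at 1.34 and 1.09, below replicates 2 and 6 at 2.58 and 2.63.

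Without Droughtmaster replicate 3, 99 genes differed, 14 higher and 85 lower in the F1 (0.755%, 0.107% and 0.648% of 13120 tested). Of the 146 genes, 88 also passed without that animal, 13 higher and 75 lower. All of the other 58 kept their direction, which their choice on the same animals makes likely. Their median adjusted p was 0.0588 and the largest 0.106, and 56 of them had an adjusted p under 0.1. Their fold changes moved little. The 35 lower genes among them had a median log2 fold change of -1.89 with that animal and -1.88 without it, and the 23 higher genes 1.25 and 1.21. That animal was the highest of the 12 libraries in 4 of the 35 and the lowest in 3 of the 23. The number of higher genes was thus 36 with it and 14 without it.

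The number of genes that passed also depended on other animals. It was 8 without F1 replicate 1, evenly split into 4 higher and 4 lower in the F1. It was 57 without F1 replicate 2, 50 without replicate 3, 50 without replicate 4, 89 without replicate 5 and 36 without replicate 6. It was 239 without Droughtmaster replicate 1, 97 without replicate 2, 193 without replicate 4, 145 without replicate 5 and 51 without replicate 6. All 146 genes had the same direction in each of the 12 fits with an animal left out. They were chosen by the group difference in these same animals, so a kept direction is no separate support. Without F1 replicate 1 the median absolute log2 fold change of the 146 was 1.96, against 2.02 with every animal, and 128 of them had an adjusted p under 0.1. A core of 8 genes, 4 higher and 4 lower in the F1, passed with all animals and without each in turn. Leaving F1 replicate 1 in, 28 genes passed without each of the other 11, 10 higher and 18 lower.

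**Figure D3:**
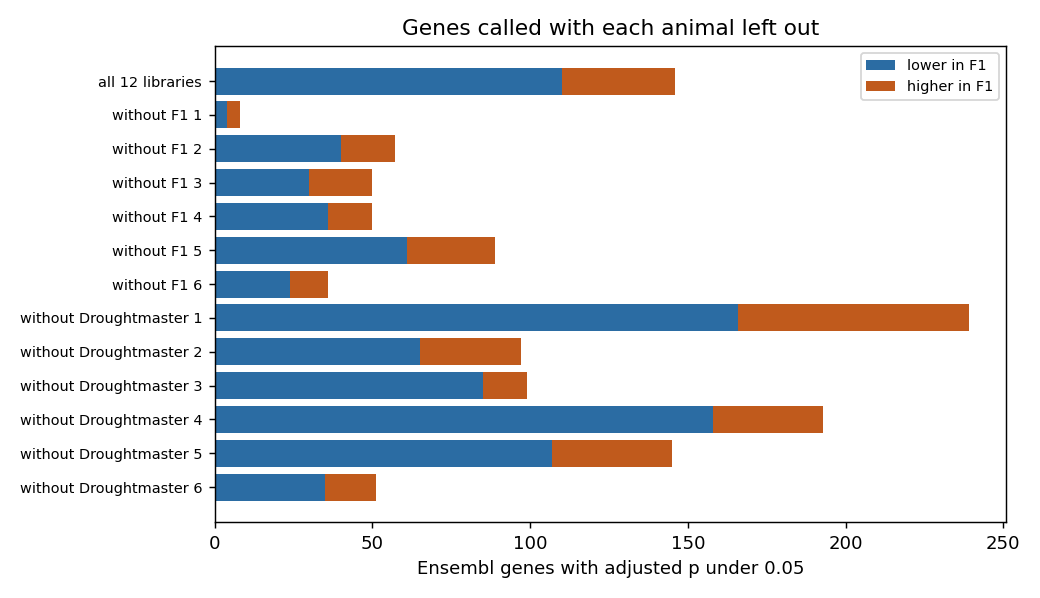
Number of Ensembl genes with an adjusted p under 0.05 with all 12 libraries (top bar, 110 lower and 36 higher in the F1) and with each animal left out. The count ranges from 8 without F1 replicate 1 to 239 without Droughtmaster replicate 1.

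The genes named below had the largest fold changes, 2 in each direction, within the set that averaged 5 CPM or more and passed with and without Droughtmaster replicate 3 (9 higher and 63 lower genes met this). Whether counting used strand is not given in the sources used here. Reads of an overlapping antisense gene may therefore be included, and near-identical copies of these genes were not assessed. Red Angus levels are scaled with all 18 libraries.

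Within this set ENSBTAG00000006035 was the most increased in the F1. It measured 69.3 CPM in the lowest F1 animal, a median of 137 and 183 in the highest. In Droughtmaster it measured 1.29, 4.52, 5.98, 7.65, 11.7 and 27.4 CPM. The groups did not overlap, and the highest Droughtmaster animal, replicate 6, lay below the lowest F1 animal. The mean was 132 ± 48.4 CPM in the F1 and 9.74 ± 9.29 in Droughtmaster (SD, n = 6 each), a log2 fold change of 3.75 ± 0.562 (SE; edgeR adjusted p = 0.0157). Without Droughtmaster replicate 3 it was 3.62 (adjusted p = 0.0215). With each animal left out it ranged from 3.53 to 4.40, and the adjusted p was at most 0.0431. Red Angus animals ranged from 14.7 to 226 CPM with a median of 81.8, so their lowest values lay within the Droughtmaster range.

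ENSBTAG00000019406 had the second largest increase. Its level ran from 8.39 CPM in the lowest F1 animal to 21.3 in the highest, with a median of 15.8. The 6 Droughtmaster animals measured 0.144, 0.931, 1.03, 1.29, 2.05 and 4.26 CPM, all below every F1 animal. This gene met the 5 CPM rule only through its F1 level and was picked for a large fold change. A low Droughtmaster level and little overlap therefore follow from the choice. The log2 fold change was 3.17 ± 0.506 (SE; edgeR adjusted p = 0.0157), with means of 15.0 ± 5.11 and 1.62 ± 1.43 CPM (SD, n = 6 each). The lowest Droughtmaster value, from 1 read, belonged to replicate 3, and without that animal the log2 fold change was 2.93 (adjusted p = 0.0212). The adjusted p was at most 0.0476 with any animal left out. Red Angus animals measured 8 to 28.5 CPM with a median of 10.8, and every one of them lay above the highest Droughtmaster animal.

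Within this set ENSBTAG00000001785 was the most reduced in the F1. The lowest F1 animal measured 0.297 CPM, the median was 6.68 and the highest 10.2. Droughtmaster animals measured 12.7, 31.5, 46.7, 236, 322 and 755 CPM. All 6 lay above every F1 animal, but they spread widely, with replicates 2, 3 and 6 high and replicates 1, 4 and 5 low. The means were 5.71 ± 4.00 and 234 ± 284 CPM (SD, n = 6 each), and the log2 fold change was -5.35 ± 1.07 (SE; edgeR adjusted p = 0.034). Without Droughtmaster replicate 3 it was -5.37 (adjusted p = 0.0348). It did not pass without any 1 of the 6 F1 animals, nor without Droughtmaster replicate 2 or 6, where the log2 fold change ranged from -5.59 to -4.48 and the adjusted p reached 0.0927. Red Angus animals measured 5.18 to 32.7 CPM with a median of 20.3, overlapping both other groups.

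ENSBTAG00000010273 was nearly silent in the F1. It met the 5 CPM rule only through its Droughtmaster level and was picked for a large fold change, so a low F1 level follows from the choice. It held 32 counts over the 6 F1 libraries, 0 in replicate 2 and 14 in replicate 6, and at most 0.775 CPM. Droughtmaster animals fell into a low pair, replicates 1 and 4 at 0.581 and 0.637 CPM, and 4 animals at 7.91, 14.6, 17.5 and 24.5 CPM. The low pair lay within the F1 range and the other 4 above it. The log2 fold change was -5.23 ± 0.951 (SE; edgeR adjusted p = 0.02), with means of 0.288 ± 0.287 and 11 ± 9.63 CPM (SD, n = 6 each). Without Droughtmaster replicate 3 it was -5.17 (adjusted p = 0.0304). It did not pass without F1 replicate 1, 2, 3 or 4, with an adjusted p of 0.0662 in the first case. In Red Angus 5 animals had 0 counts and replicate 5 had 3, which is 0.107 CPM.

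**Figure D4:**
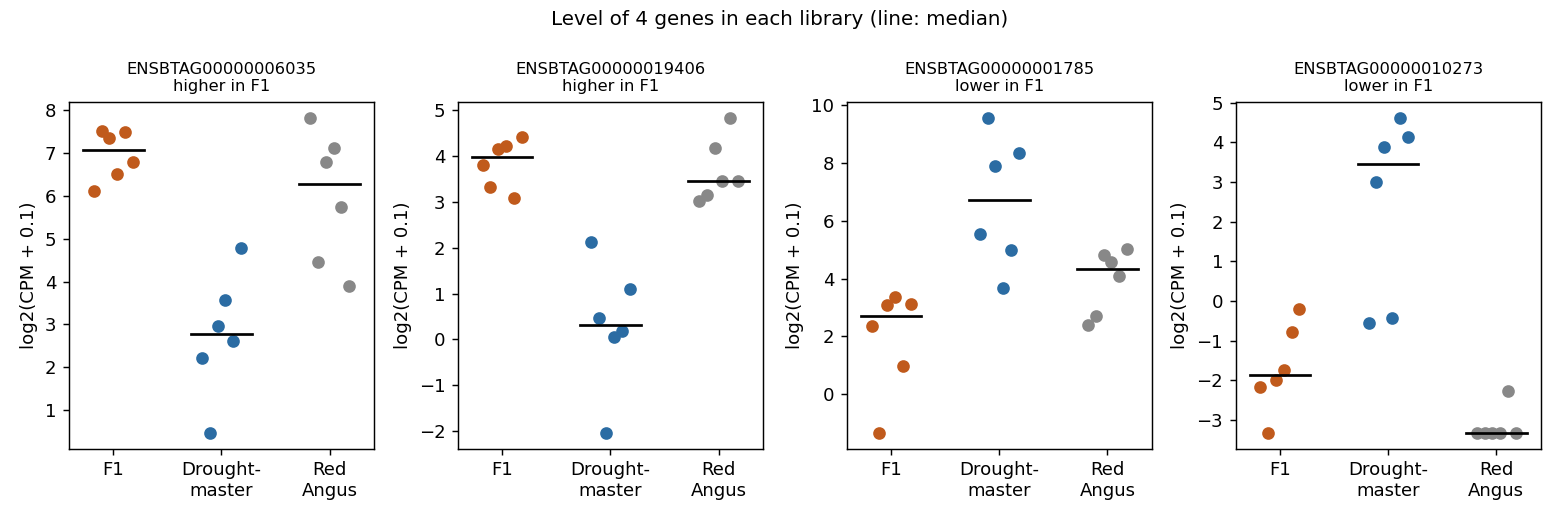
Level of the 4 named genes in each of the 18 libraries, as log2(CPM + 0.1); each point is 1 animal and each line a group median. In the left pair of panels the 6 Droughtmaster animals lie below all F1 animals, and in the rightmost panel Droughtmaster replicates 1 and 4, at 0.581 and 0.637 CPM, lie among the F1 animals.

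Few genes had counts in most animals of a single group and none in the other. Among all 27607 Ensembl genes, 7448 had 0 counts in every 1 of the 12 libraries. A further 1097 had counts in Droughtmaster and 0 in all 6 F1 libraries, and 913 had counts in the F1 and 0 in all Droughtmaster libraries. Most of these were seen in 1 animal, 765 of the 1097 and 633 of the 913. Counts in 5 or 6 animals of a group with 0 in all animals of the other were present in 7 genes for Droughtmaster and 3 for the F1. Of the 146 genes that passed edgeR's test, 0 had only zeros in either group.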

How the data were processed

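The authors deposited raw counts per gene, whole numbers whose totals differ between libraries. The tools named in the submitters' processing notes are HISAT2 2.0.5, featureCounts 1.5.0-p3, and also DESeq2 1.16.1, on build ARS-UCD1.2, with no role given. The strand setting is not given in the sources used here. Columns were matched to samples by title (0 left unmatched), and every pair of the 12 libraries differed by more than sampling noise, with a chi-square of at least 64.8 per degree of freedom. The test was that of edgeR 4.0.16 (R 4.3.3). The 6 F1 and 6 Droughtmaster libraries entered the fit, with all 30162 rows, filterByExpr by group, TMM scaling, robust quasi-likelihood F tests and Benjamini-Hochberg adjustment over the 13783 features tested. Of these 12898 carry an Ensembl identifier and are described, and 885 are loci without one. Log2 CPM used a prior count of 2. Standard errors come from the F statistic. Library measures were compared by exact permutation tests (SciPy 1.17.1). Alternatives were DESeq2 1.42.0, other scalings, no filter, all 18 libraries and leaving out each animal. The comparison, the gene lists and the rule for named genes (the largest fold changes in each direction among genes with a mean of at least 5 CPM and adjusted p under 0.05 with and without Droughtmaster replicate 3) were chosen with earlier results of these data known. The rule's first form needed symbols. With none paired, its stated second form, 2 identifiers in each direction, was used, and the gene lists and cell type markers were not tested.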

Additional observations from a re-analysis of the deposited data

Results flagged for a closer look

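A library was singled out where its gap to the nearest animal of its group was too large a part of the group's range by Dixon's 95% critical value, checked in 20 groups of 6. Chance alone would single out about 1 group in 20. Droughtmaster replicate 3 stood apart in the share of counts held by its most abundant gene, 44.6% against at most 1.87% for the most abundant gene of the other Droughtmaster animals, and in the share held by its 10 most abundant genes, 59.2% against at most 8.92%. F1 replicate 2 had the fewest Ensembl genes with a count, 14163, against 16047 or more in the other F1 animals. For ENSBTAG00000010273, Red Angus replicate 5 measured 0.107 CPM, from 3 counts, and the other 5 Red Angus animals 0. With 5 animals at 0, any count in the remaining animal would have been singled out, so the chance rate does not apply there.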

How the results depend on the processing

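With an animal left out, the count of 146 genes ranged from 8 to 239, the 36 higher genes from 4 to 73 and the 110 lower genes from 4 to 166. DESeq2's Wald test called 757 genes, 178 higher and 579 lower, among which were 145 of the 146. At an adjusted p under 0.01 edgeR with all 12 libraries and the filter called 0 genes, 0 higher and 0 lower (2038 at an unadjusted p under 0.05), and DESeq2 317. At that threshold edgeR called 17 with no filter, 29 with all 18 libraries and 0 without Droughtmaster replicate 3. Using only the Droughtmaster animals whose names hold 4 digits (replicates 3 to 6) gave 192 genes, 69 of them higher. Using only replicates 1 and 2, whose names hold 3 digits, gave 47 genes, 4 higher and 43 lower. These subsets also differ in size. The count stayed within 1.5 times of 146, in total and in each direction, under several alternatives. Among them were DESeq2 size factors (143, sharing 139 genes with the 146), TMM computed without the dominant gene (148, sharing 145) and Ensembl rows alone (144, sharing 144). Fewer genes were shared with no filter (149, sharing 118) and with all 18 libraries (155, sharing 113). No alternative reversed a named gene, but these genes were picked for their large fold changes in the same libraries. ENSBTAG00000001785 did not pass with no filter (adjusted p = 0.084). With Droughtmaster replicates 1 and 2 alone, ENSBTAG00000019406 (log2 fold change 2.43, adjusted p = 0.12) and ENSBTAG00000010273 (-3.83, adjusted p = 0.144) did not pass. The F1 minus Droughtmaster difference in the share of the most abundant gene turned from -6.36 to 0.808 percentage points without Droughtmaster replicate 3, and that of the 10 most abundant genes to 1.29 (exact permutation adjusted p = 0.355 for both without it). No paired analysis was possible because each library is from a different animal and the labels pair no animals between groups. Below 1 CPM the median standard error was 0.579, and how much of it is due to depth was not tested.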
